A study of Mus musculus with 72 samples.

Results

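Replicate 1 and replicate 2 of the wild-type (WT) iXist-ChrX-Dom time course were compared by ChrRNA-seq, the sequencing of RNA bound to chromatin, most of it newly made. Both runs had 1 library at each of days 2, 3, 5 and 7 of Xist induction and neural precursor cell (NPC) differentiation, and the 4 libraries marked Rep1 were set against the 4 marked Rep2, 8 of the 72 libraries of the series. iXist-ChrX-Dom is a female mouse embryonic stem cell (mESC) line from a cross of Dom (129S) and Cast mice, in which a TetOn promoter replaces the endogenous Xist promoter on the 129S allele. Doxycycline therefore turned on Xist from the Dom X, the future inactive X (Xi), and left the Cast X active (Xa). The cells were separated from feeder cells by pre-plating and grown in N2B27 medium with doxycycline, and the line is 1 clone. The 8 libraries of A3, an SmcHD1 knockout clone made from iXist-ChrX-Dom, were used at the same days for comparison. So were 8 WT libraries of iXist-ChrX-Cast, the sister line with inducible Xist on the Cast X. Uninduced A3 mESCs gave the starting point of the silencing fits. The iXist-ChrX-Cast WT libraries of days 2 to 7 also chose the genes of a differentiation index. Later iXist-ChrX-Dom WT libraries were described for their allele shares.

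A replicate of such a time course starts from cells that have been grown as mESCs, and cells in culture can gain or lose parts of chromosomes. Because the line is an F1 hybrid, single-base differences between the 2 parental genomes show which allele a fragment came from, so a gain or loss of 1 parental copy changes both the amount of RNA and the share of each allele. Exit from naive pluripotency switches off factors such as Klf4 and Esrrb before neural genes are switched on, while laminin and type IV collagen are basement membrane proteins that primitive endoderm makes in large amounts. Xist coats the X chromosome from which it is made and silences its genes one after another, at a pace that differs between genes.

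The libraries of replicate 1 held 25598184 to 27685127 fragments in genes and those of replicate 2 held 18357510 (day 2) to 25085526. The labels do not state whether the replicates were separate cultures, while the paper describes the early days of this line as averages over replicate time courses. The p-values measure the spread between these libraries, part of which may be technical. With 1 library per replicate and day, that spread is the variation of the replicate difference over the 4 days. Of the 5 mESC markers, Sox2 had 0 counted fragments in all 8 libraries. The other 4 summed to 713, 458, 235 and 106 RPM (fragments of a gene scaled to the library total) at days 2, 3, 5 and 7 in replicate 1 and to 756, 524, 348 and 277 RPM in replicate 2. The 5 NPC markers summed to 24.4 to 143 RPM in replicate 1 and 16 to 92.6 RPM in replicate 2. In each library 2 or 3 of these 5 were below 1 RPM, so the sums rest on the others. Sox1 had 0 counted fragments in all 8 libraries. Whether the counts of 0 for Sox2 and Sox1 reflect the cells or the counting was not tested.

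Between the replicates, 938 of 14822 genes (6.33%) differed in total RNA at an adjusted p below 0.05 (edgeR quasi-likelihood test with day as a block and Benjamini-Hochberg adjustment). Of these, 352 (2.37%) were higher in replicate 1 and 586 (3.95%) higher in replicate 2. The count rested on days 3 and 5. It was 177 without day 3 and 18 without day 5, against 808 without day 2 and 962 without day 7. Leaving out a single library gave 16 or 17 for day 5 and 199 or 218 for day 3. No call changed sign in any of these fits. The same comparison called 18 of 14870 genes (0.121%) in A3, all higher in replicate 1, and 82 of 14485 (0.566%) in iXist-ChrX-Cast WT, 45 (0.311%) higher in replicate 1 and 37 (0.255%) higher in replicate 2. When a day was left out these counts were 0 to 134 and 6 to 47.

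Outside distal chromosome 6 (past 120 Mb) and distal chromosome 11 (from Mettl2, start 105126424, onward), the genes with the largest changes towards replicate 2 included basement membrane and endoderm genes. Lama1, which encodes the laminin alpha chain of the early embryonic basement membrane (chr17:67697264-67822645, mm10), was at 83.1, 99.8, 153 and 144 RPM at days 2, 3, 5 and 7 in replicate 1 and at 283, 550, 1639 and 877 RPM in replicate 2. Every library of replicate 2 lay above every library of replicate 1, and the difference was largest at day 5. The log2 fold change, replicate 1 over replicate 2, was -2.54 (SE 0.26, adjusted p = 0.00567). Col4a1 and Col4a2 encode the 2 chains of type IV collagen and share a promoter region on chromosome 8 (chr8:11198422-11312826 and chr8:11312828-11449287). Col4a1 was at 81.2, 115, 331 and 349 RPM in replicate 1 and at 257, 511, 1748 and 1376 RPM in replicate 2. Col4a2 was at 33.6, 45.5, 141 and 188 RPM against 122, 232, 844 and 722 RPM. Both genes were higher in replicate 2 on each day, with log2 fold changes of -2.03 (SE 0.15) and -2.17 (SE 0.16) and an adjusted p of 0.00211 for each.

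The GATA factors that direct primitive endoderm differed in the same direction at lower levels. Gata4 (chr14:63198914-63245260) was at 4.12, 4.95, 5.98 and 10.5 RPM in replicate 1 and at 13.4, 19.6, 35.5 and 31.3 RPM in replicate 2. Gata6 was at 1.53, 2.53, 4.69 and 9.31 RPM against 9.26, 12.3, 27.9 and 17.9 RPM. For Gata4 all libraries of replicate 2 exceeded all of replicate 1, whereas for Gata6 the day 7 library of replicate 1 was level with the day 2 library of replicate 2. The log2 fold changes were -1.94 (SE 0.20, adjusted p = 0.00546) and -2.04 (SE 0.29, adjusted p = 0.0128). Dab2, an endocytic adaptor of visceral endoderm, rose with day in replicate 2 from 28.9 to 76.7 RPM and was at 19.9 to 35.9 RPM in replicate 1 (log2 fold change -0.96, SE 0.20, adjusted p = 0.0346). Cubn, a receptor of absorptive epithelia such as visceral endoderm, was at 17.1, 13.2, 9.65 and 3.13 RPM against 39.7, 49.7, 38 and 13.4 RPM (log2 fold change -1.77, SE 0.18, adjusted p = 0.00518). It was also lower in replicate 1 of iXist-ChrX-Cast WT (-2.31, adjusted p = 0.00263). Sox7 (-2.06, adjusted p = 0.0577) and Sox17 (-1.19, adjusted p = 0.0589) did not pass the test. The 5 primitive endoderm markers Sox17, Gata4, Gata6, Sox7 and Dab2 summed to 29.3, 28.1, 36.1 and 58.5 RPM in replicate 1 and to 52.6, 72.6, 137 and 131 RPM in replicate 2. None was at 0 in any library, but 1 or 2 of them were below 1 RPM in every library except day 5 of replicate 2. In bulk libraries, fewer cells of a type and less RNA per cell cannot be told apart.

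The rest of the 12 genes with the largest fold changes towards replicate 2 were of varied function. Epas1, which encodes the hypoxia-inducible factor HIF-2 alpha, was at 51.1, 33.3, 12.0 and 10.9 RPM in replicate 1 and at 132, 85.0, 91.0 and 84.8 RPM in replicate 2 (log2 fold change -2.11, SE 0.32, adjusted p = 0.0148). It fell with day in replicate 1 and stayed near its day 3 level in replicate 2. Trpm6, a magnesium channel, was at 1.90 to 4.00 RPM against 7.79 to 31.3 RPM, and Hs3st1, a heparan sulfate sulfotransferase, at 2.33 to 3.71 RPM against 7.03 to 25.5 RPM. Sh3tc2 was at 1.95 to 2.66 RPM against 6.48 to 19.3 RPM. The log2 fold changes of these 3 genes were -2.38, -2.27 and -2.19, and their ranges did not overlap. Rpl14-ps1 had the largest fold change of these 12, with 2.64 to 4.09 RPM in replicate 1 and 25.8 to 29.3 RPM in replicate 2 (log2 fold change -3.05, SE 0.15, adjusted p = 0.000886). It is listed as a pseudogene of a ribosomal protein gene, and its count is uncertain because near-identical copies can share its reads.

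**Figure D1:**
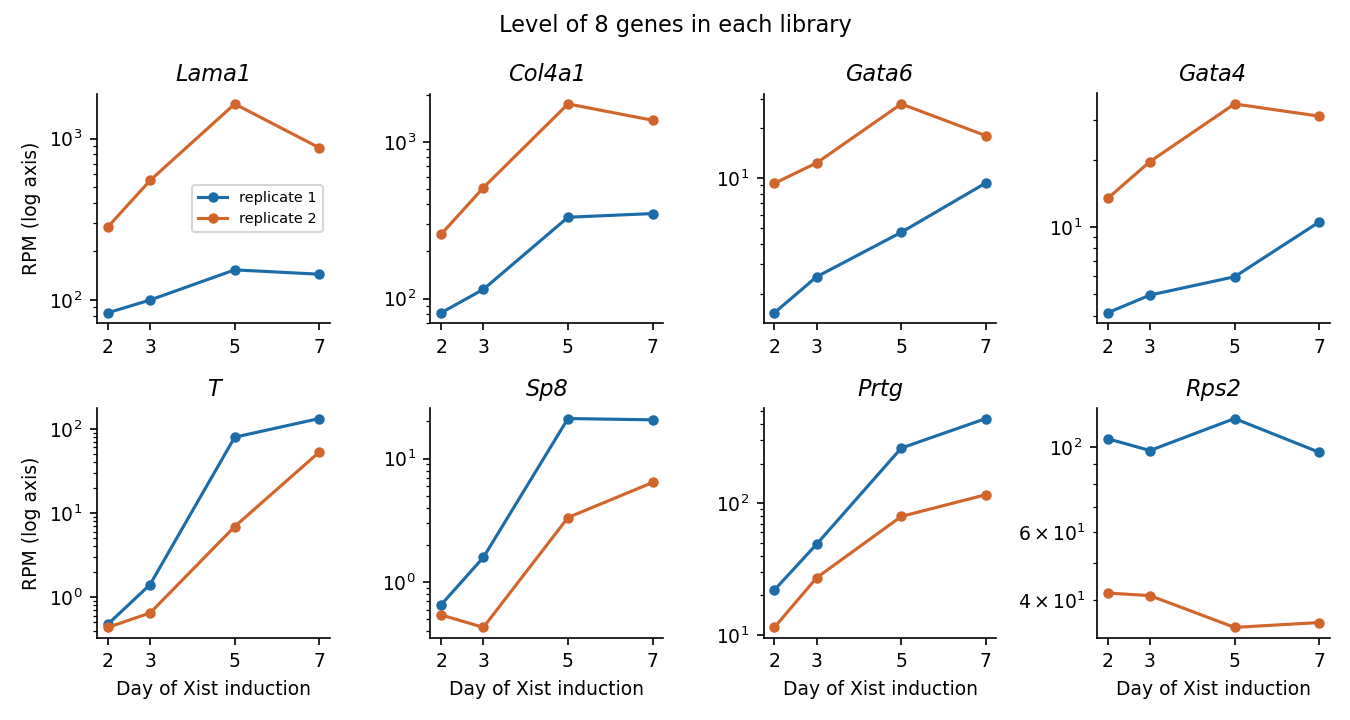
RPM on a log axis against day for 8 genes, with 1 point per library, replicate 1 in blue and replicate 2 in orange. Lama1, Col4a1, Gata6 and Gata4 were higher in replicate 2 on all 4 days, and T, Sp8, Prtg and Rps2 were higher in replicate 1 on all 4 days, with T and Sp8 close together at day 2.

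Genes higher in replicate 1 included regulators of the posterior epiblast and early neural development. T (brachyury), the mesoderm transcription factor, was at 0.474, 1.41, 79.6 and 133 RPM in replicate 1 and at 0.436, 0.647, 6.89 and 53.1 RPM in replicate 2 (log2 fold change 2.04, SE 0.44, adjusted p = 0.0394). Sp8, a zinc finger factor downstream of Wnt and FGF signals, was at 0.657, 1.59, 21.1 and 20.6 RPM against 0.545, 0.431, 3.34 and 6.42 RPM (1.88, SE 0.29, adjusted p = 0.0154). Sall3 was at 4.85, 4.8, 38.1 and 37.8 RPM against 3.21, 3.11, 4.66 and 4.54 RPM (1.96, SE 0.46, adjusted p = 0.0491). These 3 genes differed less at day 2 than at day 5, and their rise at day 5 was larger in replicate 1. Fgf8, a signal of the tail bud and the midbrain-hindbrain boundary, followed the same course, with 0.766, 0.903, 9.49 and 17 RPM against 0.545, 0.302, 1.03 and 6.82 RPM (1.80, SE 0.38, adjusted p = 0.036). T and Fgf8 were also higher in replicate 1 of iXist-ChrX-Cast WT (4.06 and 2.37, adjusted p = 0.0442 for each). Sall3 (1.49) and Sp8 (0.55) did not pass there.

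Other genes with large changes towards replicate 1 were already higher there at day 2. Prtg (protogenin), a receptor of the early neural tube, was at 22, 48.9, 262 and 439 RPM in replicate 1 and at 11.4, 27.2, 79.4 and 116 RPM in replicate 2 (log2 fold change 1.40, SE 0.18, adjusted p = 0.00862). Ephb1, an ephrin receptor, was at 24.5, 40.4, 41.2 and 25.8 RPM against 7.52, 18.9, 16.2 and 4.23 RPM (1.67, SE 0.24, adjusted p = 0.013). The X-linked synaptic adhesion gene Il1rapl1 was at 46.2, 86.2, 187 and 128 RPM against 18.8, 41.5, 50.5 and 28.7 RPM (1.62, SE 0.17, adjusted p = 0.00574). Each was higher in replicate 1 on all 4 days. Lsamp, Itgb8, Cdh20 and Car14 also passed, with log2 fold changes of 1.64, 1.38, 1.38 and 1.38. Of these, Lsamp differed less at day 2 (15.0 against 12.2 RPM) than at day 7 (137 against 24.6 RPM). Lsamp was also higher in replicate 1 of iXist-ChrX-Cast WT (2.23, adjusted p = 0.0442), where Itgb8, Cdh20 and Car14 did not pass. Rps2, a protein of the small ribosomal subunit, was at 104.97, 97.8, 118 and 96.8 RPM against 41.8, 41.2, 34 and 35.0 RPM with no overlap (1.48, SE 0.10, adjusted p = 0.00188). Fau, which encodes another ribosomal protein, was at 30.9, 24.7, 33.3 and 22.4 RPM against 10.8, 7.77, 7.39 and 21.1 RPM (1.38).

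Of the 39 genes named by size of change across the genome, Asun, Bcat1, Rpl14-ps1 and Rps2 kept an adjusted p below 0.05 in all 19 alternative fits, and Lama1, Col4a1, Col4a2, Gata4 and Phc1 in 18 of 19. Without day 5, 10 of the 39 still passed. T passed in 9 of 18 fits, with a log2 fold change between 1.16 and 2.75, and Sall3 in 8 of 19.

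In A3 the replicate numbers ran the other way. Over 14243 genes outside both distal segments, the WT and A3 replicate differences were inversely related (Pearson's r = -0.66, Spearman's coefficient = -0.61 across genes, which are not independent replicates). Of the 845 genes called in WT, 807 (95.5%) had the opposite sign in A3, against 72.9% of all these genes. Lama1, Col4a1, Col4a2 and Gata4 were higher in A3 replicate 1, by 2.52 (adjusted p = 0.0266), 2.19 (0.0167), 2.3 (0.00643) and 1.55 (0.0374) on the log2 scale in edgeR, the reverse of WT. In iXist-ChrX-Cast WT, 370 of 836 WT calls (44.3%) had the opposite sign, against 47.7% of all 13948 genes. The difference between the WT and A3 replicate contrasts passed the edgeR test in 2327 of 15443 genes (15.1%) with the numbers as labelled, and in 3 genes with the A3 numbers crossed, a setting chosen after the data were seen. The labels do not say whether a number marks the same culture or day in different genotypes, so independent numbering and exchanged numbers in either genotype cannot be told apart.

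**Figure D2:**
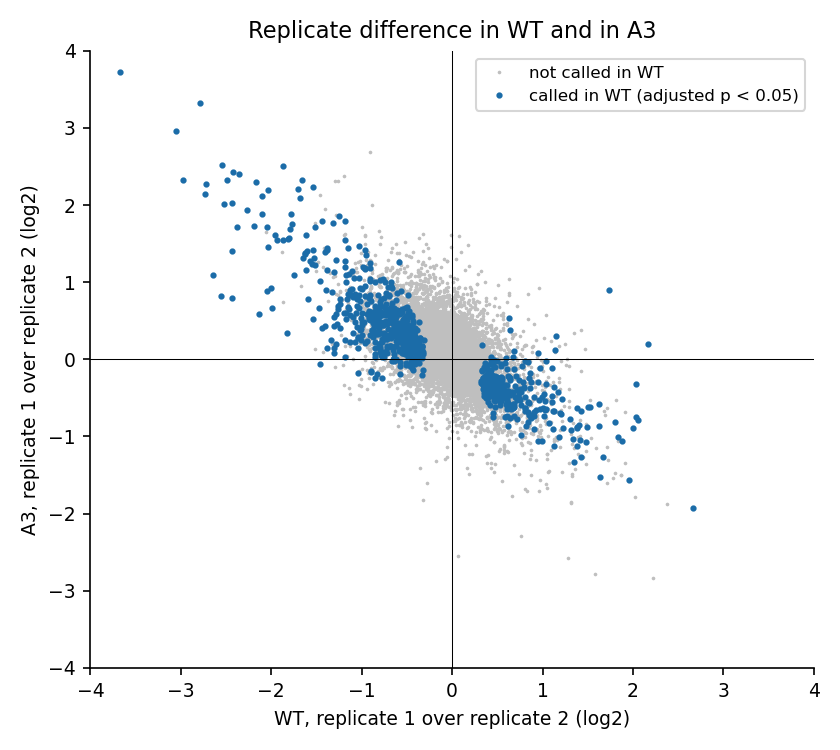
Log2 fold change of replicate 1 over replicate 2 in A3 (vertical) against that in iXist-ChrX-Dom WT (horizontal), with 1 point for each of 14243 genes outside distal chromosomes 6 and 11 and the 845 genes called in WT marked. Of the called genes, 807 had opposite signs in the 2 comparisons.

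Distal chromosomes 6 and 11 differed more often than the rest of the autosomes. On distal chromosome 6, 58 of 191 genes (30.4%) differed, 24 higher in replicate 1 and 34 higher in replicate 2. On distal chromosome 11, 34 of 219 (15.5%) differed, all higher in replicate 2. The other autosomes had 795 of 13874 (5.73%), and the X chromosome had 51 of 537 (9.5%), 37 of them higher in replicate 1. The median fitted log2 fold change was -0.28 on distal chromosome 6, -0.29 on distal chromosome 11 and -0.00293 on the other autosomes. In A3 the fitted medians of the distal segments were -0.01 and 0.02. Medians of single days were taken from RPM, scaled by library totals, and not from the fit. In day order they were -0.28, -0.26, -0.10 and -0.28 on distal chromosome 6 and -0.52, -0.34, -0.10 and -0.19 on distal chromosome 11. On the other autosomes they were -0.13, 0.0013, 0.083 and -0.039, so the day values include a part shared by all autosomes.

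The allele shares split these segments further. The Cast share, Cast/(Cast + Dom) fragments, was near 0.5 where both parental copies were read alike. On distal chromosome 6 its median over 132 genes with at least 20 allelic fragments in each library was 0.506 ± 0.0123 in replicate 1 and 0.583 ± 0.0121 in replicate 2 (SD, n = 4 days). The difference was -0.0767, and -0.049 with fragments summed over the genes. On distal chromosome 11 it was 0.507 ± 0.00522 against 0.613 ± 0.0102 over 168 genes. On the 10370 genes of the rest of the autosomes it was 0.483 against 0.487. The share was lower in replicate 1 on 4 of 4 days for each of the 3 sets, and 2 of the 16 arrangements of the exact two-sided permutation test within days gave a difference as large, the fewest possible, so that this test cannot pass 0.05. Gene by gene, 192 of 10670 autosomal genes (1.80%) differed in Cast share (limma with day as a block, adjusted p below 0.05). These were 64 of 132 on distal chromosome 6 (27 higher and 37 lower in replicate 1), 59 of 168 on distal chromosome 11 (all lower in replicate 1) and 69 of 10370 elsewhere (0.665%), of which 30 lay on chromosome 5 and 24 on chromosome 11. No A3 gene passed the limma test, of 10643 genes, with 823 at an unadjusted p below 0.05. The count of 192 was 18 to 25 when any single library was left out.

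Divided at the genes where the share difference changed, 7 stretches of chromosomes 5, 6 and 11 stood out. Their limits were chosen from the shares, so their values are a description with no test. At the end of chromosome 6, from Sox5 (start 143828424) to the chromosome end, the Cast share over 30 genes was 0.518, 0.502, 0.475 and 0.487 in replicate 1 and 0.109, 0.105, 0.100 and 0.0776 in replicate 2. In replicate 2 the Cast copy gave at most 0.109 of the allelic RNA of the median gene, and in replicate 1 about as much as the Dom copy. Its Cast RNA was lower in replicate 2 than in A3 by 2.99 on the log2 scale (SD 0.24), whereas Dom RNA differed between the replicates by 0.02. Total RNA was higher in replicate 1, with a median log2 fold change of 0.83 and 23 of 36 genes called, none of them higher in replicate 2.

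The stretches before it on chromosome 6 went the other way. From M6pr (start 122309009) to Necap1, a stretch of 0.580 Mb, the Cast share over 10 genes was 0.517, 0.508, 0.507 and 0.496 in replicate 1 and 0.711, 0.721, 0.721 and 0.734 in replicate 2. From Pex5 (start 124396815) to Etnk1 it was 0.513, 0.512, 0.512 and 0.487 against 0.611, 0.629, 0.619 and 0.634 over 79 genes. Cast RNA in replicate 2 exceeded that of A3 by 1.67 (SD 0.46) in the first and by 0.94 (SD 0.07) in the second. Cast RNA in replicate 1 exceeded that of A3 by 0.36 (SD 0.12) and 0.28 (SD 0.04). Dom RNA exceeded that of A3 in the first by 0.26 in replicate 1 and 0.33 in replicate 2, and in the second by 0.09 and 0.07. Median total RNA was lower in replicate 1 by 0.78 and 0.37 on the log2 scale, with 7 of 11 and 27 of 128 genes called, 33 of these 34 higher in replicate 2. Further up the same chromosome, from Cntnap2 to Suclg1, the Cast share was 0.399, 0.415, 0.441 and 0.455 in replicate 1 and 0.480 to 0.486 in replicate 2, with a median total log2 fold change of -0.09 and 10 of 132 genes called (7.58%).

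On distal chromosome 11 the Cast share was again lower in replicate 1. From Ict1 (start 115403765) to the end it was 0.520, 0.513, 0.524 and 0.521 in replicate 1 and 0.642, 0.643, 0.622 and 0.627 in replicate 2 over 110 genes. Here A3, at 0.642 to 0.648, was level with replicate 2, and Cast RNA in replicate 1 was below that of A3 (-0.58, SD 0.15) while in replicate 2 it was not (0.03, SD 0.09). From Cdk12 (start 98203304) to Cdr2l, the share was 0.489 to 0.497 against 0.557 to 0.599 over 146 genes, so the difference began before the limit of the distal segment. The median total log2 fold changes of the 2 stretches were -0.34 and -0.20.

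The end of chromosome 5 held a stretch outside both distal segments. From Ptcd1 (start 145147377) to the chromosome end, the Cast share over 37 genes was 0.477, 0.466, 0.489 and 0.486 in replicate 1 and 0.317, 0.327, 0.326 and 0.334 in replicate 2, with A3 at 0.470 to 0.497. The Dom RNA of replicate 2 was higher than that of A3 by 0.96 on the log2 scale (SD 0.08) and that of replicate 1 by 0.02. Total RNA had a median log2 fold change of -0.58, and 24 of 46 genes were called, all higher in replicate 2. Fry, a regulator of the cytoskeleton (chr5:150259929-150497753), was among them at 18.4, 15.7, 14.1 and 21.1 RPM against 35.4, 30.6, 55.8 and 121 RPM (log2 fold change -1.59, SE 0.28, adjusted p = 0.0218). Genomic DNA was not measured in these libraries, so copy number itself was not tested.

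**Figure D3:**
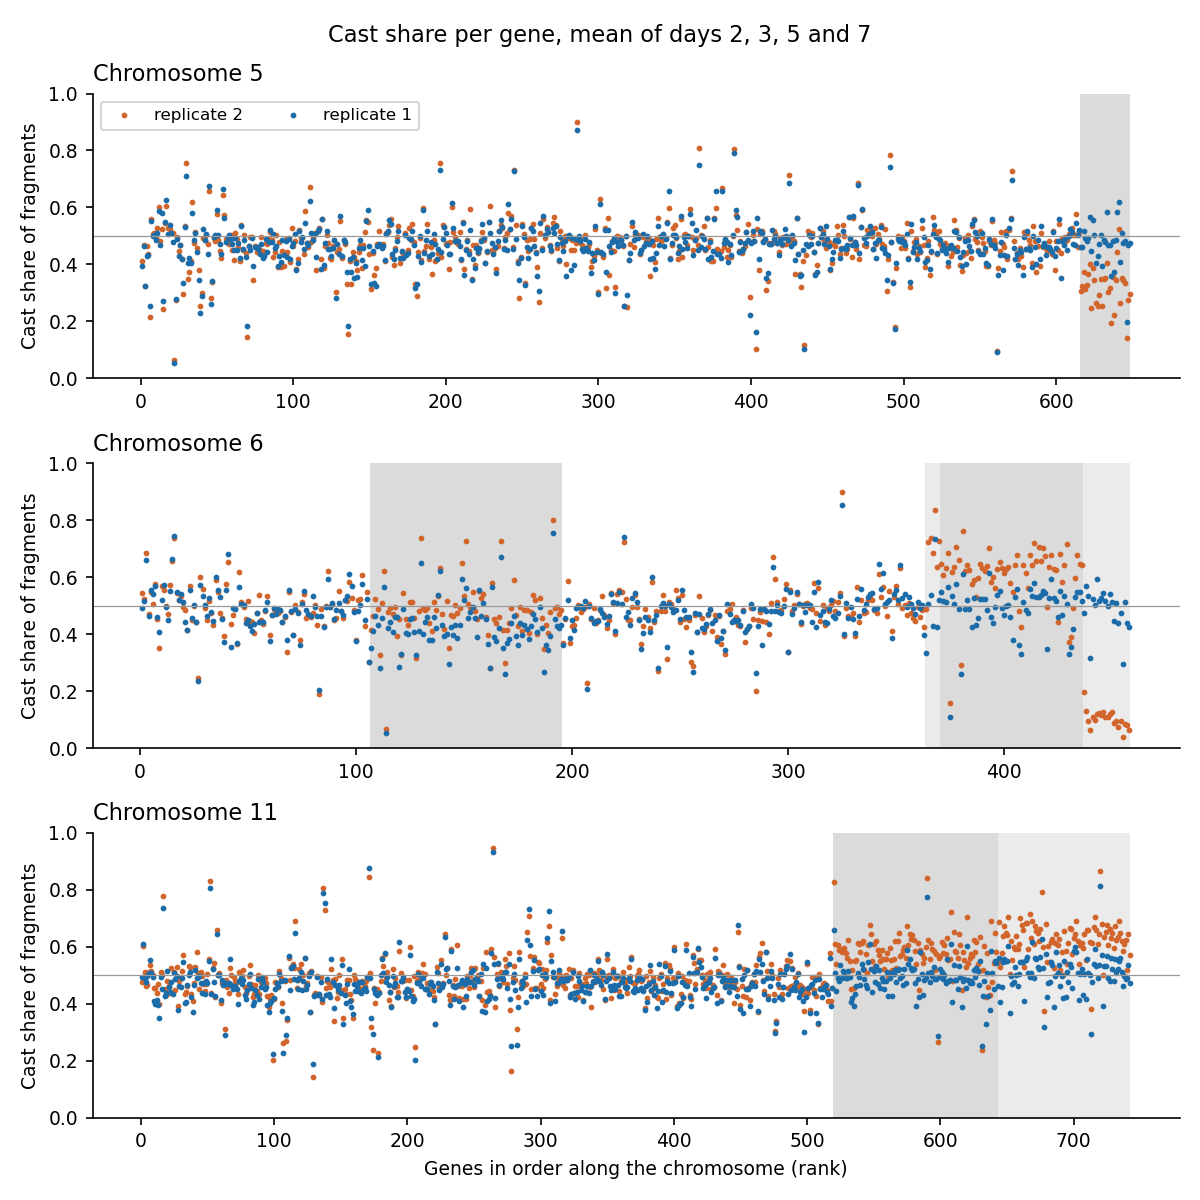
Cast share per gene (vertical, mean of the 4 days) against the rank of the gene along chromosomes 5, 6 and 11 (horizontal), with replicate 1 in blue, replicate 2 in orange and the 7 stretches in grey. Genes have at least 50 allelic fragments in each of the 8 libraries. Replicate 2 fell to about 0.1 at the end of chromosome 6 and to about 0.33 at the end of chromosome 5, and lay above replicate 1 before the end of chromosome 6 and on distal chromosome 11.

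The single WT libraries of later days, which carry no replicate number, were unlike each other in these stretches. At day 15 the Cast share was 0.471 at the end of chromosome 5, 0.494 at the end of chromosome 6 and 0.535 at the end of chromosome 11, near replicate 1. At days 21, 35 and 52 it was 0.328, 0.333 and 0.333 at the end of chromosome 5 and 0.636, 0.634 and 0.640 at the end of chromosome 11, near replicate 2. At the end of chromosome 6 it was 0.0432, 0.0905 and 0.146 on these days.

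Inside all 7 stretches 136 of 699 tested genes (19.5%) were called, 28 higher in replicate 1 and 108 higher in replicate 2. On the autosomes outside them 751 of 13585 (5.53%) were called. Most of the 938 genes therefore lay outside the stretches.

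Among genes of the end of chromosome 6, Bcat1, a cytosolic enzyme of branched-chain amino acid metabolism (chr6:144993834-145076157), was at 253, 176, 232 and 167 RPM in replicate 1 and at 97.7, 85.5, 92.6 and 75.3 RPM in replicate 2 (log2 fold change 1.24, SE 0.09, adjusted p = 0.00211). Its Cast share was 0.594, 0.594, 0.554 and 0.537 against 0.171, 0.134, 0.1254 and 0.0895 (difference 0.440, SE 0.0123, limma adjusted p = 0.000545), the smallest p of all autosomal genes. Neither its levels nor its shares overlapped between replicates. Asun (chr6:146549631-146577835), needed for dynein at the nuclear envelope, was at 123 to 164 RPM against 54.6 to 75.4 RPM (1.25, SE 0.09, adjusted p = 0.00211). Lyrm5, Mrps35 and Med21, of which Mrps35 is a mitochondrial ribosomal protein and Med21 a Mediator subunit, had log2 fold changes of 1.38, 1.17 and 1.16.

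Genes of the preceding stretches were higher in replicate 2. Phc1, a Polycomb repressive complex 1 subunit (chr6:122317730-122340227), was at 268, 251, 161 and 96.5 RPM in replicate 1 and at 724, 669, 351 and 266 RPM in replicate 2 (log2 fold change -1.34, SE 0.08, adjusted p = 0.0018). Apobec1, an mRNA cytidine deaminase (chr6:122577791-122602444), was at 6.41 to 10.3 RPM against 18.9 to 28.3 RPM (-1.47, SE 0.13, adjusted p = 0.00441). Tead4, a partner of YAP, was at 24.6, 22.2, 14 and 21.1 RPM against 49.1, 42.8, 42.4 and 49.0 RPM (-1.17, SE 0.14, adjusted p = 0.00817). Apobec1 and Tead4 did not overlap between replicates, and Phc1 was higher in replicate 2 on each day. Hebp1 and Foxj2 had log2 fold changes of -1.25 and -1.20. Of the 26 tested genes of distal chromosome 6 with a known role in stem cells or disease, 3 were higher in replicate 1, among them Bcat1 and Gapdh, and 6 higher in replicate 2 (Apobec1, Foxj2, Tead4, Cd9, Eps8 and Foxm1), with a median log2 fold change of -0.32. These 9 of 26 stand beside 30.4% called and a median of -0.28 over all tested genes of the segment.

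On distal chromosome 11, 5 genes were named by size of change, all higher in replicate 2. Itgb4, the hemidesmosome integrin (chr11:115974724-116008411), was at 4.60, 5.38, 4.92 and 3.60 RPM in replicate 1 and at 8.99, 11.9, 12.9 and 15.0 RPM in replicate 2 (log2 fold change -1.37, SE 0.20, adjusted p = 0.0139). Llgl2, an epithelial polarity protein, was at 21.1, 16.9, 21.2 and 28.9 RPM against 33.5, 29.6, 46.3 and 74.6 RPM (-0.98, SE 0.14, adjusted p = 0.0132). Both were higher in replicate 2 on all 4 days and without overlap. Evpl, Cyb561 and St6galnac2 had log2 fold changes of -1.14, -1.02 and -0.83. Of 27 genes of known role there, only Recql5, a DNA helicase, passed (-0.56, adjusted p = 0.0147), against 15.5% of the segment, and the median was -0.16.

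Read as an index, the pace of differentiation diverged between the replicates by day 7. The test cannot separate this from the spread over days. The index was taken as the mean log2(RPM + 1) of 200 genes that rise with day minus that of 200 that fall, both chosen in iXist-ChrX-Cast WT. It was -1.15, -0.600, 1.07 and 2.77 in replicate 1 and -1.05, -0.666, 0.863 and 2.32 in replicate 2. Replicate 1 was lower at day 2 and higher from day 3, by 0.0659, 0.210 and 0.450. The mean difference over days was 0.155 (SD 0.235, exact permutation p = 0.375). The 16 arrangements cannot give a p below 0.05, and the SD includes the change of the difference with day. Read on the course of replicate 1, the index of replicate 2 at days 3, 5 and 7 equalled that at days 2.86, 4.69 and 6.40. The falling genes were lower in replicate 1 on all 4 days (mean -0.235), and so were the rising genes (mean -0.0797), again the most extreme of 16 arrangements. The higher late index of replicate 1 thus lay in the falling genes, while its rising genes were not higher on any day.

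**Figure D4:**
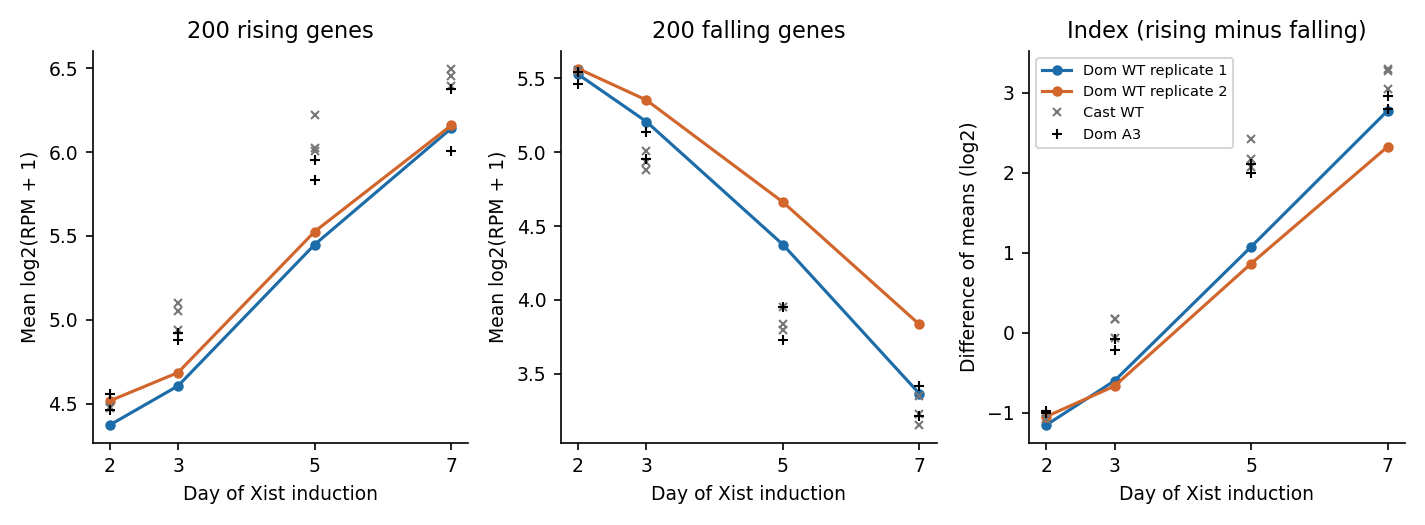
Mean log2(RPM + 1) of the 200 rising genes, of the 200 falling genes and their difference (the index), each against day, with 1 point per library. Replicates 1 and 2 of iXist-ChrX-Dom WT are blue and orange, with iXist-ChrX-Cast WT as crosses and A3 as plus signs. The falling genes were lower in replicate 1 at every day, and the index of replicate 1 exceeded that of replicate 2 by 0.450 at day 7.

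A test of whether the replicate difference changed with day called 1001 of 14822 genes (6.75%), 482 with a slope higher in replicate 1 (3.25%) and 519 with a lower slope (3.5%). The count was 1727 and 1718 without the day 5 library of replicate 1 or 2 and 593 and 572 without those of day 7. Of the 200 falling genes, 57 had a lower slope in replicate 1 and 0 a higher slope. Of the 199 rising genes tested, 14 had a higher and 5 a lower slope.

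Most naive pluripotency genes fell faster in replicate 1. Of 16 tested, 12 had a lower slope, against 3.5% of all genes, and 0 a higher slope. Over all days 1 of the 16 passed, beside 6.33% of all genes. Their median log2 fold change was -0.40 against -0.00347 for all genes. The median of this list was -0.41 between the iXist-ChrX-Cast WT replicates and 0.72 between the A3 replicates. Esrrb, a nuclear receptor of the naive network, was at 238, 165, 76.9 and 39.7 RPM in replicate 1 and at 294, 235, 161 and 144 RPM in replicate 2, a change of -0.33 per day on the log2 scale (edgeR adjusted p = 0.000546). Klf4 was at 15.3, 8.13, 5.12 and 2.62 RPM against 15.7, 7.94, 13.8 and 17 RPM (-0.58 per day, edgeR adjusted p = 0.000512). Both started closer together at day 2 than they were at day 7, and Klf4 rose again in replicate 2. Nanog, which lies on distal chromosome 6, was level until day 5 and at 16.1 against 39.3 RPM at day 7 (-0.26 per day, edgeR adjusted p = 0.0205). Klf5 was the gene that passed over all days, at 40.6, 31.7, 29.8 and 19.1 RPM against 72.7, 49.9, 41.3 and 42.6 RPM (-0.76, SE 0.11, adjusted p = 0.0135). Of 9 core pluripotency genes, 0 passed over all days in edgeR (2 at an unadjusted p below 0.05, 1 in DESeq2) and 5 had a lower slope.

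Some neural and regional genes had a slope that differed between replicates, for which the share over all genes was 3.25% higher and 3.5% lower in replicate 1. Of 11 tested NPC genes, 6 had a higher and 1 a lower slope in replicate 1, and 1 differed over all days. This was Sox11, a neural SoxC factor, at 54.2, 55.2, 121 and 79.7 RPM against 41.9, 43, 59.1 and 36.4 RPM (0.75, SE 0.14, adjusted p = 0.0269). Of 8 genes of regional brain identity, 3 had a higher slope. Pax3, a dorsal neural tube and neural crest factor, was at 2.97 and 47.7 RPM at days 5 and 7 in replicate 1 and at 0.908 and 2.35 RPM in replicate 2 (0.97 per day, edgeR adjusted p = 0.00059). Of 12 primed and formative genes, Fgf5 was higher in replicate 1 (0.77, adjusted p = 0.0443), and Cdh2 and Lef1 had a higher slope. Of 11 neuronal genes, 0 passed over all days in edgeR (2 unadjusted, 2 in DESeq2) and 2 had a higher slope. Of 11 Wnt targets, Sp8 passed and 4 had a higher slope.

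The 5 genes with the smallest p for a change with day were Rims1, Fbn2, Ror2, Cdh13 and Dcc. Fbn2, a fibrillin of embryonic matrix, was at 19.7, 23.6, 43.6 and 127 RPM in replicate 1 and at 27.9, 26, 20.0 and 15.2 RPM in replicate 2 (0.70 per day, SE 0.06, adjusted p = 0.000111). Dcc, the netrin receptor of growing axons, was at 2.66, 7.95, 63.3 and 137 RPM against 6.92, 2.89, 5.61 and 4.74 RPM (1.13 per day, SE 0.10, adjusted p = 0.000113). Cdh13 was at 41, 56.3, 258 and 203 RPM against 37.6, 36.7, 65.4 and 34.7 RPM (0.49 per day). Fbn2 and Dcc started lower and ended higher in replicate 1, and all 3 genes had their largest day 7 level there. Rims1, a presynaptic protein, was the reverse, with 180, 198, 117 and 38.5 RPM against 89.2, 127, 147 and 90.0 RPM (-0.47 per day, SE 0.04, adjusted p = 0.000111).

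Of the 11 tested genes of mesendoderm and primitive endoderm, T was higher in replicate 1 and Gata4, Gata6 and Dab2 were higher in replicate 2. This list thus moved in both directions (median -0.41), and 6.33% of all genes tested passed. Of 12 feeder fibroblast genes, 0 passed over all days in edgeR (1 unadjusted, 1 in DESeq2). Among them 5 had a higher slope in replicate 1, against 3.25% of all genes, namely Col3a1, Prrx1, Twist2, Pdgfrb and Fbn1. The 11 feeder markers summed to 11.1 to 85.9 RPM in replicate 1 and to 12.2 to 34.6 RPM in replicate 2. Their highest value was that of replicate 1 at day 7, at 85.9 against 34.6 RPM, and their part in the day 7 differences was not tested.

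Ribosomal protein genes passed in 1 direction. Of 81 tested, 13 passed and all 13 were higher in replicate 1, against 2.37% of all genes tested, while 77 had a positive log2 fold change (median 0.21). Of these 81, 11 had a lower slope in replicate 1 and 0 a higher slope, against 3.5% and 3.25% of all genes. In A3 their median was 0.005 and in iXist-ChrX-Cast WT -0.34. Rps2, Rpl17, Rpl15 and Rpl10 had log2 fold changes of 1.48, 0.84, 0.78 and 0.76. Reads of these genes can be shared with processed pseudogenes. Gene length moved with the difference. Of 5 equal bins of genes by span outside both segments, the shortest (up to 8.386 kb) had 77 genes higher in replicate 1 and 19 in replicate 2, with a median of 0.10. The longest (from 76.878 kb) had 74 and 256, with a median of -0.08. The part of length and of depth in these differences was not tested.

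The counts of the other lists stand beside 6.33% of all genes tested. Several of these small lists, such as those of hypoxia and glycolysis genes and nuclear RNAs, lay above that share. No list was tested against it. Of 18 hypoxia and glycolysis genes, the X-linked glycolytic enzyme gene Pgk1 (1.11, adjusted p = 0.0135) and Eno1 (0.54) were higher in replicate 1, and Pdk1 (-0.65) and the oxygen sensor Egln1 (-0.64) in replicate 2. Among 13 nuclear RNAs, Snhg3 (0.97) and Snhg1 (0.45) were higher in replicate 1, and the paraspeckle RNA Neat1 was at 34, 26.7, 15.3 and 13 RPM against 62.1, 41.3, 30.7 and 36 RPM (-0.97, SE 0.14, adjusted p = 0.0135). Of 18 X inactivation factors, Lrif1, a partner of SmcHD1, was higher (0.46, adjusted p = 0.0275) and Pcgf5, a Polycomb subunit of the Xist pathway, lower in replicate 1 (-0.67, adjusted p = 0.044). Of 31 imprinted genes, Impact (0.43) and Ube3a (0.41) passed, and of 9 BMP targets Smad7 (-0.73). Of 9 heat shock genes, Hsph1 passed (-0.41) and lies in the stretch at the end of chromosome 5. No gene passed the edgeR test over all days in the lists of DNA methylation, immediate early, p53, unfolded protein, cholesterol, FGF-ERK, retinoic acid, two-cell-like, histone and Hox genes. Over these lists and the 3 lists without a call above, 191 genes were tested, of which 30 had an unadjusted p below 0.05 and 12 passed in DESeq2. Of the 62 histone genes tested, 7 had a lower slope in replicate 1 and 0 a higher slope, against 3.5% and 3.25% of all genes.

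The X-linked allelic ratio was higher in replicate 1 at days 2, 3 and 5, and the permutation test could not pass for a difference of any size. Over 246 X-linked genes, the median allelic ratio Xi/(Xi + Xa) was 0.230, 0.149, 0.0503 and 0.0164 at days 2, 3, 5 and 7 in replicate 1 and 0.197, 0.102, 0.0423 and 0.0178 in replicate 2, from 0.514 and 0.512 in uninduced A3. Its largest gap was at day 3, and at day 7 replicate 1 was the lower. The mean difference was 0.0216 (SD 0.0224, exact permutation p = 0.25), and the 16 arrangements cannot give a p below 0.05. The A3 replicates were at 0.213 and 0.210 at day 2 and at 0.122 and 0.0974 at day 3. Split by speed in A3, the fast, middle and slow 82 genes had ratios of 0.0542, 0.110 and 0.187 in WT replicate 1. In WT replicate 2 these were 0.0478, 0.0909 and 0.158. The differences between WT replicates were 0.00718, 0.0256 and 0.0289, and the ratio itself was lowest in the fast genes and highest in the slow.

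A half-time was fitted to each gene as an exponential decay over the 4 days and an uninduced point, the mean ratio of uninduced A3 mESCs. Its median was 1.67 days in replicate 1 (quartiles 1.12 and 2.26) and 1.38 days in replicate 2 (0.966 and 1.88). Of the 246 genes, 198 were slower in replicate 1 and 44 in replicate 2, with a median difference of 0.247 days, which was 0.154 days without day 3. Genes are not replicates, and the uninduced point is shared, so no test was made. The half-times of A3 replicates 1 and 2 were 1.60 and 1.49 days. Gene by gene, 0 of the 246 ratios differed between replicates (limma), with 25 at an unadjusted p below 0.05. With at least 20 allelic fragments in each library, 3 of 216 passed, all higher in replicate 1. The smallest p was that of Mcf2, a guanine nucleotide exchange factor gene, with ratios of 0.196, 0.151, 0.106 and 0.0946 against 0.0916, 0.0527, 0.0316 and 0.0112 (difference 0.0902, SE 0.0149, limma adjusted p = 0.0923).

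**Figure D5:**
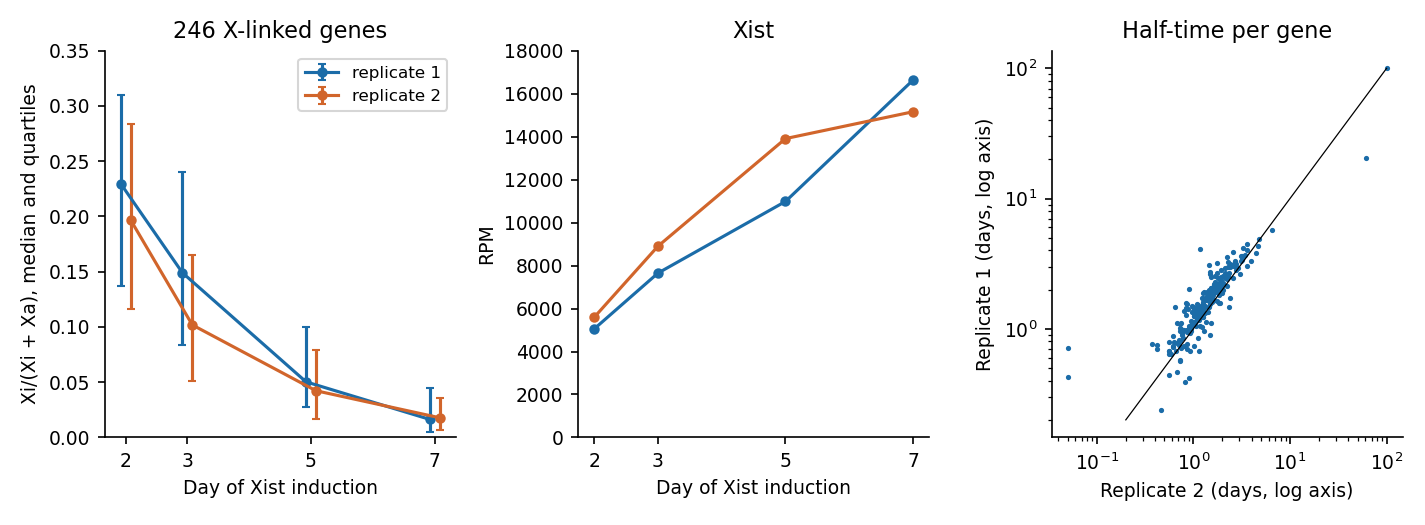
Allelic ratio Xi/(Xi + Xa) of 246 X-linked genes by day (median and quartiles), Xist in RPM by day, and the half-time of each gene in replicate 1 against replicate 2 (days, log axes). Replicate 1 is blue and replicate 2 orange. The ratio of replicate 1 was higher at days 2, 3 and 5, its Xist was lower on these days, and 198 genes had the longer half-time in replicate 1.

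Xist was at 5048, 7648, 10985 and 16636 RPM in replicate 1 and at 5588, 8899, 13910 and 15161 RPM in replicate 2. It was lower in replicate 1 on the 3 days when the ratio was higher, and higher at day 7. The mean difference was -0.14 on the log2 scale (SD 0.20, exact permutation p = 0.25). Over 216 genes with sufficient depth, the median level from Xi was higher in replicate 1 by 0.34, 0.65 and 0.32 on the log2 scale at days 2, 3 and 5 and differed by -0.13 at day 7, whereas that from Xa differed by 0.02 to 0.13. Of 537 X-linked genes, total RNA had a median log2 fold change of 0.14. Among 12 escape genes, 11 had a positive log2 fold change, and Eif2s3x, a translation initiation factor gene, passed (0.40). Of all tested X-linked genes, 30.5% had a negative log2 fold change and 9.5% passed.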

How the data were processed

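ChrRNA-seq libraries were made with a stranded total RNA kit. The authors removed ribosomal reads with Bowtie2 (2.3.2), aligned the rest to an mm10 genome masked at SNPs with STAR (2.4.2a), assigned alleles with SNPsplit and counted fragments over whole transcripts, strand by strand, with featureCounts (1.5.2). They deposited whole-number counts for 22556 genes, 908 of them X-linked: total, Cast and Dom. They also deposited a table of iXist-ChrX-Dom allelic ratios, each a fraction Xi/(Xi + Xa), for genes past their filters on allelic depth. It gave the list of 246 X-linked genes, and its 26 value columns carried names of other libraries and were not used.

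The compared libraries and gene lists were chosen with earlier results of these data known. Total counts were fitted with edgeR 4.0.16 (TMM, filterByExpr, quasi-likelihood, day plus replicate; the interaction with day used day as a number), allele shares with limma 3.58.1 (trend), in R 4.3.3, with Benjamini-Hochberg adjustment at 0.05. Fold changes are replicate 1 over replicate 2 on the log2 scale, and RPM are scaled by library totals. Medians per library were compared by exact two-sided permutation within days. Stretches were found by least-squares partition of Cast share differences (genes with at least 50 allelic fragments, at least 5 genes and a difference of at least 0.03). Half-times were limited to between 0.05 and 100 days. Genes were named if they passed, kept 1 sign on all 4 days and had a mean of at least 5 RPM: the 12 largest changes in each direction outside the distal segments and the 5 largest in each inside, without predicted symbols, and the 5 smallest p for the interaction and the allelic ratio, with members of the lists. Exceptions chosen after their values were seen are the other genes named from the chromosome ends. Alternatives were DESeq2 1.42.0, other scalings, filters and depths, no day block, and each day or library left out. Figures were drawn with matplotlib 3.10.9 in Python 3.11.15.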

Additional observations from a re-analysis of the deposited data

Results flagged for a closer look

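The replicate difference of iXist-ChrX-Dom WT was not that of A3 in 2327 of 15443 genes (edgeR test of the difference between both contrasts, adjusted p below 0.05), with the replicate numbers as labelled. With the A3 numbers crossed, a setting chosen after the data were seen, 3 genes differed. The labels do not say whether numbers are shared between genotypes, so the values given here hold for the labelled numbers, and exchanged numbers cannot be told apart from independent ones. Among the genes named in the report, the WT difference minus the A3 difference, on the log2 scale, was positive for genes higher in WT replicate 1. It was 3.54 for Sall3, 3.18 for Lsamp, 2.97 for Ephb1, 2.92 for Sp8, 2.57 for Rps2, 2.53 for Cdh20, 2.3 for Itgb8, 2.26 for Prtg, 2.22 for Il1rapl1 and 2.04 for Fau.

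It was negative for genes higher in WT replicate 2. It was -6.01 for Rpl14-ps1, -5.04 for Lama1, -4.45 for Col4a2, -4.20 for Col4a1, -4.18 for Hs3st1, -4.07 for Trpm6, -3.97 for Epas1, -3.89 for Sh3tc2, -3.74 for Gata6, -3.51 for Cubn, -3.46 for Gata4 and -2.35 for Fry. These differences exceed those within WT, since the A3 replicates differed with the opposite sign. T and Car14 did not pass this test.

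Genes of the distal segments passed as well. On chromosome 6 the difference was 1.57 for Asun, 1.46 for Lyrm5, 1.42 for Mrps35, 1.42 for Med21 and 1.33 for Bcat1, and -2.42 for Apobec1, -2.01 for Hebp1, -1.86 for Tead4, -1.66 for Phc1 and -1.19 for Foxj2. On chromosome 11 it was -2.69 for Itgb4, -2.41 for Evpl, -1.97 for Llgl2, -1.90 for Cyb561 and -1.08 for St6galnac2.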

How the results depend on the processing

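No paired analysis was possible because the replicate number is itself the contrast, so it cannot also be a block. Libraries were matched by day instead. The 938 genes became 1822 with DESeq2 (921 of the 938 still called), 15 without the day block and 16 to 962 when a day or library was left out. Genes higher in replicate 1 were 37.5% of calls in edgeR and 53.3% without the day block. For A3, the 18 genes became 345 with DESeq2, 29 without a filter on low counts, 0 without the day block (edgeR, 819 unadjusted) and 0 to 134 without a day (134 without day 7, 0 otherwise, with 1350 to 1625 unadjusted). For iXist-ChrX-Cast WT, the 82 became 615, 276, 0 (edgeR, 694 unadjusted) and 6 to 47. The 1001 genes changing with day became 662 with DESeq2 and 572 to 1727 without a library. With the A3 numbers crossed, a setting chosen after the data were seen, 3 genes in place of 2327 differed between the WT and A3 contrasts. The 192 genes of differing allele share became 18 to 25 without a library. With at least 20 allelic fragments, 3 X-linked ratios differed in place of 0. The half-time difference was 0.154 to 0.276 days without a day. The cause of these shifts was not tested. The median log2 fold changes and Cast share differences of both distal segments, the index, the median ratio and the Xist difference kept their direction in every alternative run. Of these, the Cast share difference of distal chromosome 6 went from -0.0767 to -0.049 with summed fragments in place of the median over genes. The index difference, for which the permutation test cannot pass 0.05, ranged from 0.0568 to 0.275. For the genes named by size of change, 563 alternative values stayed on their side of the threshold, 174 lost the call and none changed sign. With at least 10 or 50 allelic fragments in place of 20, the allele share differed in 146 and 215 genes.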
